A study of Mus musculus with 6 samples.

Results

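Thermogenic fat genes are described here as a set of 10 genes, 6 of them effectors (Ucp1, Cidea, Cox7a1, Cox8b, Dio2 and Otop1) and 4 of them regulators (Ppargc1a, Ppargc1b, Prdm16 and Ebf2). They were chosen by symbol, each has a row among the 14291 genes of the table, and all 10 were tested. The study sequenced polyA RNA of mouse fat labelled as epididymal white fat, with 3 libraries of wild type and 3 of Prmt5 knockout. Wild type stands for mice with floxed Prmt5 alleles (Prmt5flox/flox), and the knockout is written Prmt5AKO. The labels used here give no Cre driver, age, diet or count of animals, and do not say whether the libraries of a genotype came from separate animals. P-values therefore speak only of library-to-library spread, and this may be technical.

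Brown and beige adipocytes burn fuel to make heat, while white adipocytes store it. The uncoupling protein UCP1 lets protons back across the inner mitochondrial membrane without making ATP, and these cells also carry their own forms of respiratory subunits. Noradrenaline raises cAMP in the cell, and the factors PRDM16 and EBF2 with the coactivators PGC-1α and PGC-1β switch on the program. Epididymal fat of mice is a depot in which this program is normally weak. PRMT5, the deleted enzyme, is an arginine methyltransferase acting on histones and splicing proteins.

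Total counts ran from 17489530 to 26403882 per library. Prmt5 itself stood at 37.5, 59.9 and 40.8 CPM (a count over its TMM-scaled library size) in the wild-type libraries, replicates 1 to 3, against 14.8, 22.4 and 28.5 CPM in the knockout ones, with no overlap. Along the first principal component of log2(CPM + 1), which held 67.2% of the variance, wild-type replicates 1 and 3 and knockout replicate 1 scored below 0 and the other 3 libraries above it. The same 3 libraries had the most Xist, the transcript of the inactive X chromosome, at 958, 510 (wild type) and 1044 (knockout) CPM, against 106 in wild-type replicate 2 and 45.6 and 47.2 in knockout replicates 2 and 3. Xist is a transcript of female cells and epididymal fat is a depot of males, so these levels go against the labelled depot in at least those 3 libraries. The 4 Y-linked genes listed had no row among the 14291 genes used here and could not be read. The submitters' name for the table holds the word batch, and its deposited p-values matched an edgeR fit that parts replicate 1 of both genotypes from replicates 2 and 3 (median absolute log10 ratio 8.3e-14). That fit is called the batch-term fit and stands beside the fit with genotype alone.

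None of the 10 genes passed the threshold over all genes in either edgeR fit, and the difference between effectors and regulators was not tested. All 6 effectors had a log2 fold change (knockout over wild type) above 0, with a median of 1.96, against 49.0% of all genes and a median of -0.02. Of the 4 regulators 3 lay above 0, with a median of 0.39. edgeR's quasi-likelihood test with genotype alone called 0 of 10 genes at an adjusted p under 0.05, and 0 of 14291 genes (0.0%). At an unadjusted p under 0.05, 4 effectors (Cidea, Cox7a1, Cox8b and Otop1) and 0 regulators stood higher, against 5.26% of all genes. With the batch term 3 effectors did so, against 12.1%. The batch-term fit also called 0 of the 10 genes, against 0.504% of all genes, and limma-voom called 0. DESeq2 called Cidea (adjusted p = 0.00537) and Cox7a1 (adjusted p = 0.0329) higher, against 1.2% of all genes. Because whole tissue was sequenced, more thermogenic cells and more RNA per cell cannot be told apart.

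**Figure D1:**
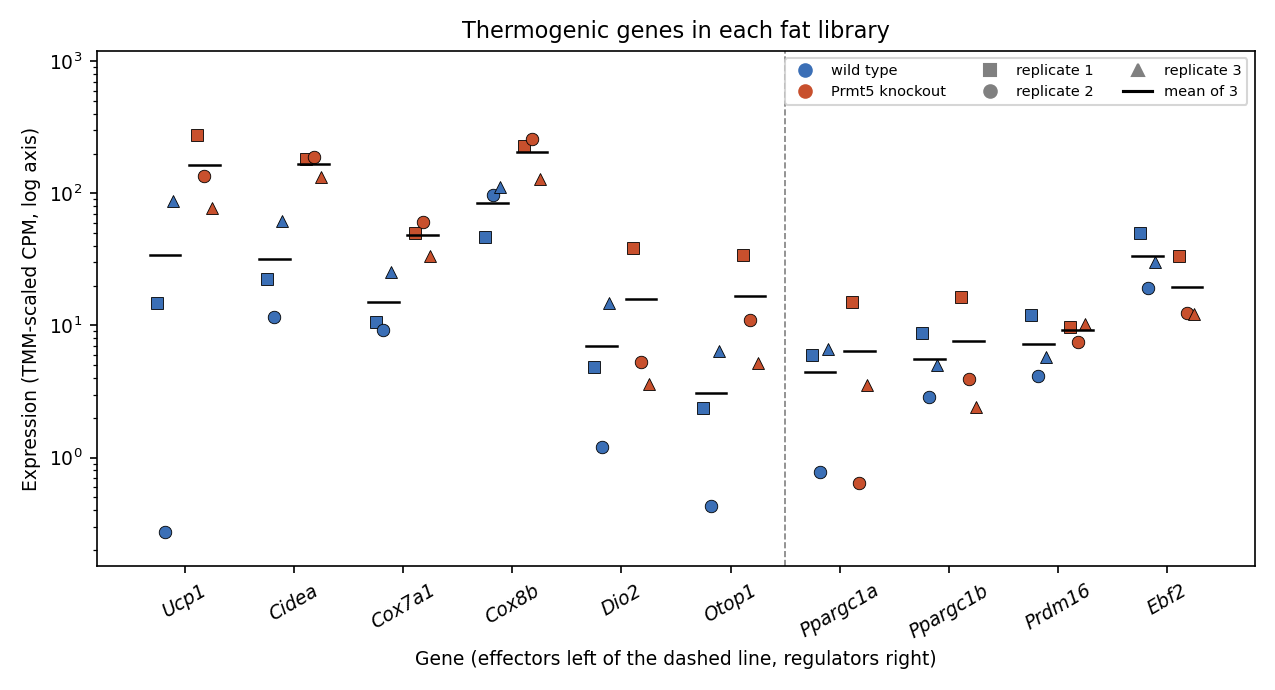
Expression of the 10 genes in each library as TMM-scaled CPM on a log axis, wild type in blue and knockout in red, with marker shape for the replicate number and a bar for the mean of 3 libraries. Cidea, Cox7a1 and Cox8b have every knockout library above every wild-type library, while Ucp1 runs from 0.273 CPM in wild-type replicate 2 to 278 CPM in knockout replicate 1.

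Ucp1 (mm10 chromosome 8, bases 83290348 to 83298456) is the gene of the uncoupling protein of thermogenic fat. Its level was 14.7, 0.273 and 88.1 CPM across wild-type replicates 1, 2 and 3, and 278, 136 and 77.0 CPM across the same knockout replicates. Wild-type replicate 3 lay above knockout replicate 3, so the genotypes overlapped. Within wild type the highest library had 323-fold the level of the lowest, against 3.61-fold within the knockout. The lowest value rests on 7 counts, with an exact Poisson 95% interval of 2.81 to 14.4 counts that covers counting error only. The means were 34.4 ± 47.1 and 164 ± 103 CPM (SD, n = 3 each), a log2 fold change of 2.25 (SE 1.38, adjusted p = 0.606, edgeR). In replicate 1 alone, a single library of each genotype, the log2 difference was 4.24, and in replicates 2 and 3 alone the fitted value was 1.25. Without wild-type replicate 3 the batch-term value was 5.76 (adjusted p = 0.0151, edgeR). That fit called 5 effectors (Ucp1, Cidea, Cox7a1, Dio2 and Otop1), against 0.777% of all genes called higher. Wild-type replicate 3 was the highest wild-type library for each of these 5, so leaving it out raises their values. With genotype alone and without that library, Ucp1 was at 4.46 (adjusted p = 0.914, edgeR) and 0 effectors were called. limma-voom put Ucp1 at 4.30 (adjusted p = 0.536).

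Cidea, a protein of the lipid droplet surface that is abundant in brown fat, separated the genotypes. The gene (mm10 chromosome 18, bases 67343564 to 67367794) measured 22.5, 11.6 and 61.8 CPM in wild type and at 182, 189 and 133 CPM in the knockout. Each knockout library had more than the highest wild-type library, as 8.32% of all genes did. The means were 32.0 ± 26.4 and 168 ± 30.5 CPM (SD, n = 3 each), a ratio of 5.25, and the knockout libraries lay closer together, within 1.42-fold of each other. The log2 fold change was 2.39 (SE 0.59, adjusted p = 0.356, edgeR) with genotype alone and 2.42 (SE 0.56, adjusted p = 0.0995, edgeR) with the batch term. It was 3.01 in replicate 1 alone and 2.11 in replicates 2 and 3 alone, and it ranged from 1.99 to 3.302 with each library left out in turn.

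Cox7a1 and Cox8b encode the forms of 2 small subunits of cytochrome c oxidase that heart, skeletal muscle and brown fat use in place of the common Cox7a2 and Cox8a. Cox7a1 (mm10 chromosome 7, bases 30184171 to 30186030) measured 10.7, 9.31 and 25.2 CPM in wild type and at 50.4, 60.5 and 33.3 CPM in the knockout. Cox8b (mm10 chromosome 7, bases 140898942 to 140900446) measured 47.0, 96.8 and 111 CPM in wild type and at 229, 259 and 128 CPM in the knockout. Neither gene overlapped between genotypes, and knockout replicate 3 came nearest to wild type in both. The log2 fold change was 1.67 (SE 0.45, adjusted p = 0.393, edgeR) for Cox7a1 and 1.27 (SE 0.41, adjusted p = 0.478, edgeR) for Cox8b. Both values were larger in replicate 1 alone (2.24 and 2.29) than in replicates 2 and 3 alone (1.42 and 0.87).

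The windows around the annotated starts of Ucp1, Cox7a1 and Cox8b are shown as examples of effectors that leaned higher, although Ucp1 overlapped between genotypes. That of Dio2 is added because Dio2 stood higher in replicate 1 alone. Each sequence is from RefSeq (GRCm38.p6, the mm10 assembly), runs 5′ to 3′ on the gene's strand and holds 250 bases before the start and 50 from it. Capitals mark matches, on either strand, to a list of short motifs. The windows are chr8:83290098-83290397 (plus strand) for Ucp1, chr7:30183921-30184220 (plus strand) for Cox7a1, chr7:140900397-140900696 (minus strand) for Cox8b and chr12:90738989-90739288 (minus strand) for Dio2.
Ucp1: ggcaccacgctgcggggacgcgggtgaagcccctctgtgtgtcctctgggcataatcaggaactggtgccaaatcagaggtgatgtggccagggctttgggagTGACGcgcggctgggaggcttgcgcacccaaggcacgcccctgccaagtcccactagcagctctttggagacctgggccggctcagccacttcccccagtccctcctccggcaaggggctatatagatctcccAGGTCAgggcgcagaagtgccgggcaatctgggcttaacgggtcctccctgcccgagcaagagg
Cox7a1: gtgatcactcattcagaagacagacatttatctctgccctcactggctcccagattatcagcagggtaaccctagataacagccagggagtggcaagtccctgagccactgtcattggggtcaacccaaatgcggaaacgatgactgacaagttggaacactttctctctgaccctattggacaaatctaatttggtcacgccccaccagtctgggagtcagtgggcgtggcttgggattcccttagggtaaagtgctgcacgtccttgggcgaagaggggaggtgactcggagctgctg
Cox8b: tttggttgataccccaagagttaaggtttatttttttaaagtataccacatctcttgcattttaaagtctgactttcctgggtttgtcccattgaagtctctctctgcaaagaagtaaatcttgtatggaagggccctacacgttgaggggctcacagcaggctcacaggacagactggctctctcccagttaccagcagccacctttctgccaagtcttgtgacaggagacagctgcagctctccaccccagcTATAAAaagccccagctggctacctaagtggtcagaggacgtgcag
Dio2: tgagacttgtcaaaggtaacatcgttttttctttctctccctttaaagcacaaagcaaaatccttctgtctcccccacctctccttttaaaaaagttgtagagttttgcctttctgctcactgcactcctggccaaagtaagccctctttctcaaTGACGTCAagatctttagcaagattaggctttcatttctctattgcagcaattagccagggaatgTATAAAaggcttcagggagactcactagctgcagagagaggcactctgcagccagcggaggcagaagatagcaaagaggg
The start used for Ucp1, Cox7a1 and Cox8b was that of the deposited gene model, and that of Dio2 lay 600 bases from it. The Dio2 window held the full cAMP response element TGACGTCA, found in 1.79% of 32851 RefSeq windows of the same length, and the TATA box TATAAA, found in 13.6%. The Ucp1 window held the element's TGACG half-site (20.8% of windows) and the nuclear receptor half-site AGGTCA (16.3%), and the Cox8b window held TATAAA just after its start. The full element contains the TGACG half-site on both strands. The ERR element TCAAGGTCA (0.423%), the DR1 element of direct AGGTCA repeats (0.0396%), the EBF element CCCNNGGG (13.7%) and the NRF1 element (4.6%) had no match in these 4 windows. The Cox7a1 window had no match to any motif on the list. Among windows not shown, those of Otop1 and Prdm16 had no match either, and that of Ppargc1a held the TGACG half-site on the opposite strand. A match is a description of the letters and not a site.

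Dio2 and Otop1, the other effectors, overlapped between genotypes. Dio2, the deiodinase that makes active thyroid hormone inside brown fat cells, stood at 4.88, 1.21 and 14.8 CPM in wild type and at 38.5, 5.29 and 3.61 CPM in the knockout. Knockout replicates 2 and 3 lay inside the wild-type range and knockout replicate 1 above it. The log2 fold change of Dio2 was 1.18 (SE 1.08, adjusted p = 0.660, edgeR), 2.98 in replicate 1 alone and -0.88 in replicates 2 and 3 alone. Without knockout replicate 1 it was -0.66. Dio2 lies on chromosome 12, 90724552 to 90738438 (mm10). Otop1, a proton channel gene also known from the inner ear and from sour taste cells (mm10 chromosome 5, bases 38277404 to 38304217) measured 2.35, 0.428 and 6.44 CPM in wild type and at 34.3, 10.98 and 5.19 CPM in the knockout. Here only knockout replicate 3 reached into the wild-type range. Its log2 fold change was 2.45 (SE 0.99, adjusted p = 0.567, edgeR), falling to 1.21 in replicates 2 and 3 alone and to 1.39 without knockout replicate 1.

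**Figure D2:**
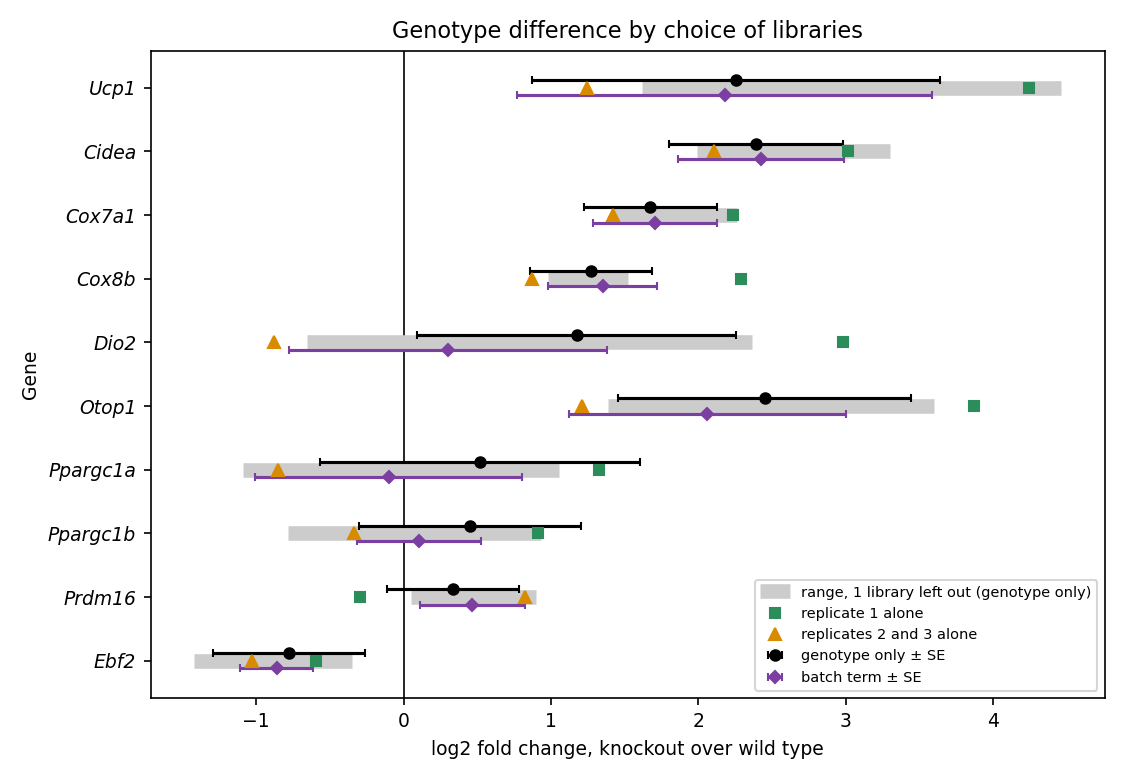
Log2 fold change of each gene, knockout over wild type, with genotype alone (black, ± SE), with the batch term (purple, ± SE), in replicate 1 alone (green square, 1 library of each genotype) and in replicates 2 and 3 alone (orange triangle). Grey bands span the 6 fits that leave out 1 library. The values of Ucp1, Cidea, Cox7a1, Cox8b and Otop1 stay above 0 in each of these and those of Ebf2 below it. Those of Dio2, Prdm16, Ppargc1a and Ppargc1b lie on both sides of 0.

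The 2 PGC-1 coactivators did not follow genotype. Ppargc1a encodes PGC-1α, the coactivator that cold and cAMP induce in brown fat and that drives mitochondrial genes (mm10 chromosome 5, bases 51454249 to 51553921). It stood at 5.99, 0.779 and 6.62 CPM in wild type and at 14.999, 0.638 and 3.56 CPM in the knockout, with log2 fold change 0.52 (SE 1.09, adjusted p = 0.828, edgeR). Its highest and its lowest library were both knockouts, replicates 1 and 2, which differed 23.5-fold. The lowest value rests on 14 counts. Ppargc1b, which encodes the related PGC-1β (mm10 chromosome 18, bases 61298136 to 61400431) measured 8.74, 2.88 and 5.06 CPM in wild type and at 16.4, 3.96 and 2.42 CPM in the knockout, with log2 fold change 0.45 (SE 0.75, adjusted p = 0.786, edgeR). For both genes the 3 highest libraries were knockout replicate 1 and wild-type replicates 1 and 3, the libraries with the most Xist. The part of that difference in these values was not tested. The batch-term values were -0.10 for Ppargc1a and 0.10 for Ppargc1b, and without knockout replicate 1 the genotype-only values were -1.09 and -0.79. In replicate 1 alone the log2 difference was 1.32 for Ppargc1a and 0.91 for Ppargc1b.

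Prdm16 and Ebf2, the transcription factors, leaned in opposite directions. Prdm16, which steers precursors to the brown and beige fate (mm10 chromosome 4, bases 154316125 to 154636873) measured 11.98, 4.13 and 5.73 CPM in wild type and at 9.77, 7.43 and 10.3 CPM in the knockout. The knockout libraries all lay inside the wild-type range, and the log2 fold change was 0.33 (SE 0.45, adjusted p = 0.741, edgeR). Prdm16 was lower in the knockout within replicate 1 (-0.29) and higher in replicates 2 and 3 (0.82). Ebf2, which opens brown fat enhancers and marks committed precursors (mm10 chromosome 14, bases 67233292 to 67430952) measured 50.4, 19.3 and 30.1 CPM in wild type and at 33.5, 12.4 and 12.3 CPM in the knockout. Within each replicate number the knockout library had less Ebf2 than the wild-type library. These numbers did not pair all the libraries, however, and the genotypes overlapped. Ebf2 was the only one of the 10 genes with a genotype-only value below 0, at -0.78 (SE 0.51, adjusted p = 0.611, edgeR). With the batch term Ebf2 was -0.86 (SE 0.25, unadjusted p = 0.00788, adjusted p = 0.129, edgeR), where 12.4% of all genes stood lower at an unadjusted p under 0.05. Adipose progenitor markers also stood lower in sum. All 6 of that list lay below 0 with genotype alone (Dpp4 -1.74, Dcn -1.34, Pdgfra -1.30, Pi16 -1.10, Cd34 -0.18 and Ly6a -0.02), with 0 called by edgeR in either fit. DESeq2 called Dpp4 and Dcn lower (adjusted p = 0.00359 and 0.000768), where it called 271 of 14291 genes in either direction. The summed level of the 6 markers was 1956 to 2468 CPM in wild type and 1040 to 1288 CPM in the knockout. None was at 0, and their part in the Ebf2 value was not tested.

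**Figure D3:**
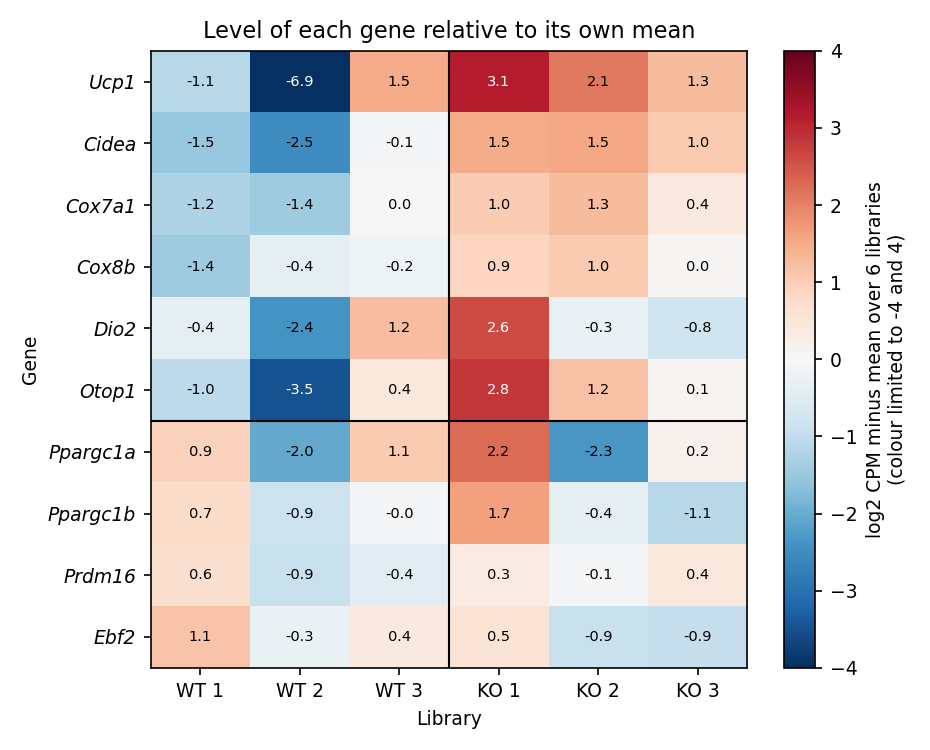
Log2 CPM of each gene minus its mean over the 6 libraries, with numbers in the cells and colours limited to -4 and 4. Wild-type replicate 2 is the lowest library for 6 of 10 genes, knockout replicate 1 is the highest for 5. Cidea, Cox7a1 and Cox8b are below their mean in wild-type replicate 1 and above it in knockout replicates 1 and 2.

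The libraries were ordered alike over much of the set. Wild-type replicate 2 was the lowest wild-type library for 9 of 10 genes, Cox8b being the exception, and wild-type replicate 3 was the highest for 7. Among knockout libraries replicate 3 was the lowest for 8 of 10 genes and replicate 1 the highest for 6. Ucp1 and Otop1 put the 6 libraries in one and the same order, with knockout replicates 1 and 2 first and wild-type replicates 1 and 2 last. Cidea and Cox7a1 likewise shared an order, led by knockout replicate 2. Over 12832 other genes, likeness was measured as the root mean square difference of log2 CPM after each gene's mean over the 6 libraries was removed. The gene most like Ucp1 was Cdsn (1.30), followed by Otop1 (1.57), H2-Q5 (1.67), Uckl1os (1.80) and Fabp3 (1.91). H2-Q5 belongs to a family of near-identical genes and its counts are uncertain to that extent. The gene most like Cidea was Cox7a1 (0.56), followed by Car12 (0.58), Cdkn1a (0.60), Atp6v1c2 (0.61) and S100b (0.63). Ranked by likeness to Cidea, Otop1 came at place 28, Cox8b at 92, Dio2 at 1092 and Ucp1 at 11645 among the effectors. Of the regulators Prdm16 came at 1604, Ppargc1b at 7365, Ebf2 at 11180 and Ppargc1a at 11406, so the ranks of effectors and regulators overlapped. The measure was not scaled for the size of a gene's swing, which was widest for Ucp1 among the 10 genes. Ranked by likeness to Ucp1, Otop1 came at place 2, Cidea at 7, Dio2 at 21, Cox7a1 at 36 and Cox8b at 304. In that ranking Ppargc1a came at 184, Prdm16 at 455, Ppargc1b at 502 and Ebf2 at 9110.

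Levels can be set against each other once divided by exonic length. In CPM per kilobase, Cox8b led in both genotypes, at 234 ± 92.8 in wild type and 566 ± 188 in the knockout (SD, n = 3 each), above the next gene in every library of the genotype. Cox7a1 (41.2 ± 24.0), Cidea (27.5 ± 22.7) and Ucp1 (20.9 ± 28.6) followed in wild type and overlapped each other. In the knockout Cidea (144 ± 26.2), Cox7a1 (131 ± 37.6) and Ucp1 (99.7 ± 62.9) again overlapped. The knockout libraries of Ucp1 all stood above those of Otop1, the next gene at 5.34 ± 4.89 CPM per kilobase. Ebf2 was the most abundant regulator in wild type at 6.02 ± 2.85 CPM per kilobase, with no overlap with the next gene. Ppargc1b, Dio2, Otop1, Prdm16 and Ppargc1a lay at or under 1.52 CPM per kilobase on average in wild type, where neighbours in the order overlapped.

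The muscle-type and common isoforms were compared as a share of their sum per length. Cox7a1 made up 14.7%, 5.44% and 17.0% of Cox7a1 plus Cox7a2 in wild type and 37.8%, 21.8% and 12.3% in the knockout. Cox8b made up 11.7%, 10.3% and 14.4% of Cox8b plus Cox8a in wild type and 34.8%, 20.04% and 10.02% in the knockout. Both shares were highest in knockout replicate 1 and overlapped between genotypes, since knockout replicate 3 was as low as wild type. Exact two-sided permutation tests gave p = 0.3 for Cox7a1 and p = 0.4 for Cox8b (both 0.514 after adjustment over 9 pairs), where 3 against 3 libraries cannot go below 0.1. The common partners leaned the same way as the muscle-type forms, with log2 fold changes of 0.63 (Cox7a2, adjusted p = 0.631, edgeR) and 0.49 (Cox8a, adjusted p = 0.672, edgeR). In another isoform pair of this complex, Cox6b2 stood at 7.16 ± 1.03 and 4.57 ± 0.952 CPM with no overlap (-0.65, adjusted p = 0.592, edgeR) and its common partner Cox6b1 at 395 ± 115 and 565 ± 177 CPM. Cox4i2, a tissue isoform of a further subunit, stood at 4.16 ± 1.76 and 7.13 ± 3.22 CPM. With offsets for length and GC content Cox8a was at -0.08 and Cox7a2 at 0.60. The same offsets put Cox8b at 0.998 and Cox7a1 at 1.32, each below its value without them.

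**Figure D4:**
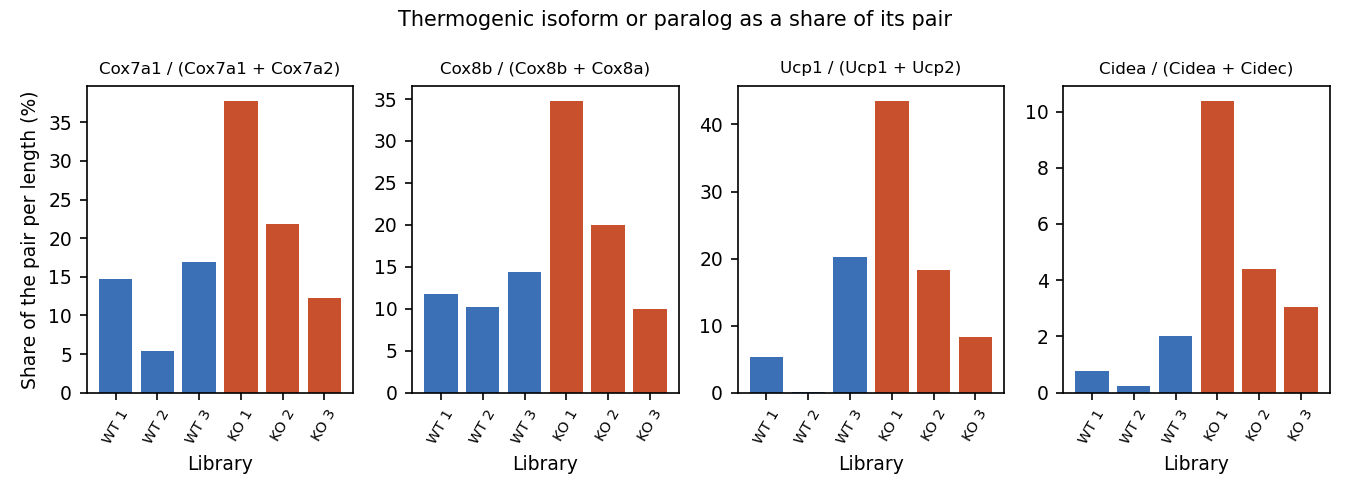
Share of the thermogenic gene in the sum of a related pair per length, in percent, for each library (wild type blue, knockout red), with a vertical scale of its own for each pair. Cidea as a share of Cidea plus Cidec has no overlap between genotypes, while the other 3 pairs overlap.

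Paralogs outside the thermogenic program gave the same kind of comparison. Cidec, the related droplet protein of white fat, stood at 5399 ± 1749 and 4880 ± 2225 CPM (log2 fold change -0.15, adjusted p = 0.892, edgeR). Cidea made up 0.757%, 0.230% and 2.03% of Cidea plus Cidec per length in wild type and 10.4%, 4.41% and 3.04% in the knockout, with no overlap (exact two-sided permutation p = 0.1, the smallest that 3 against 3 allows, and 0.3 adjusted). Ucp2, a widely expressed relative of Ucp1, stood at 374 ± 145 and 580 ± 233 CPM (0.63, adjusted p = 0.613, edgeR), and Ucp3, the muscle form, at 33.5 ± 12.5 and 22.7 ± 14.6 CPM (-0.56, adjusted p = 0.655, edgeR). Ebf1, the most abundant EBF gene here, stood at 79.4 ± 37.2 and 47.0 ± 23.1 CPM (-0.76, adjusted p = 0.605, edgeR). Ebf2 made up 28.7 ± 0.723% of Ebf2 plus Ebf1 per length in wild type and 27.6 ± 3.16% in the knockout, a nearly constant share while both levels varied. Pprc1, the third PGC-1 family member, stood at 18.04 ± 3.21 and 19.6 ± 0.428 CPM.

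Skeletal muscle also makes Cox7a1 and Cox8b, and muscle transcripts were present. All 12 skeletal muscle markers were detected, none at 0 throughout, and 11 of them lay below 0 with genotype alone (median -1.44, 0 called by edgeR). Their summed level was 206 to 3390 CPM in wild type and 483 to 2197 CPM in the knockout. Acta1, the marker above 0 (0.56), made up a large part of several of these sums. It stood at 564, 140 and 983 CPM in wild type and at 266, 1007 and 1216 CPM in the knockout. Wild-type replicate 3 had the highest sum and knockout replicates 1 and 2, the libraries with the most Cox7a1 and Cox8b, had 483 and 1178 CPM. Cox6a2, the muscle form of a further subunit, stood at 14.6 ± 16.1 and 6.36 ± 7.14 CPM. Heart muscle markers went the other way. All 4 tested of 6 (Myh6, Tnni3, Tnnt2 and Actc1) lay above 0 (median 1.40, 0 called by edgeR), with a summed level of 4.47 to 5.88 CPM in wild type and 6.50 to 23.9 CPM in the knockout. Their highest sum was in knockout replicate 3, which had the least Cox7a1 and Cox8b of the knockout libraries. The part of muscle transcripts in the Cox7a1 and Cox8b values was not tested. Mature adipocyte markers summed to 28886 to 40023 CPM in wild type and 25163 to 39183 CPM in the knockout. Macrophage markers summed to 1085 to 1783 CPM in wild type and 1370 to 2163 CPM in the knockout, and 4 of 6 lay above 0. Cd68, a lysosomal protein of macrophages, stood at 43.2 ± 18.8 and 85.1 ± 8.29 CPM with no overlap (0.98, adjusted p = 0.502, edgeR), and Cd163, a scavenger receptor of tissue macrophages, fell in the batch-term fit (-1.47, adjusted p = 0.0321, edgeR). Endothelial markers summed to 604 to 898 CPM and 700 to 910 CPM. Mesothelial markers summed to 215 to 329 CPM and 71.9 to 416 CPM, and the 3 tested mammary epithelial markers to 12.3 to 26.3 CPM and 4.15 to 34.8 CPM. The listed genes of epididymis and testis had no row among the genes used here.

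Other genes of thermogenic fat were taken from lists that leave out the 10 genes. Of 12 tested genes of the heat and fuel machinery, 11 lay above 0 (median 1.02), and 6 had no overlap with the knockout higher, against 8.32% of all genes. In replicates 2 and 3 alone, 7 of 11 tested lay above 0 (median 0.81). The gene below 0 with genotype alone, Acot2, was lower without overlap (-0.76, adjusted p = 0.526, edgeR), as 6.2% of all genes were. Kcnk3, a potassium channel gene of thermogenic adipocytes, stood at 45.0, 56.0 and 57.6 CPM in wild type and at 135, 201 and 246 CPM in the knockout. It rose in the batch-term fit (1.85, adjusted p = 0.0183, edgeR), the only call of the list in that fit, which called 0.504% of all genes. DESeq2 called 3 of the list higher, Kcnk3 (adjusted p = 2.8e-05), Letmd1 (adjusted p = 0.00681) and Acot11 (adjusted p = 0.0322), against 1.2% of all genes. Letmd1, a mitochondrial protein gene that mouse brown fat needs, stood at 65.9 ± 8.58 and 136 ± 6.75 CPM (log2 fold change 1.05 with SE 0.24, adjusted p = 0.356, edgeR). Acot11, an acyl-CoA thioesterase, stood at 2.79 ± 1.13 and 12.2 ± 9.64 CPM (log2 fold change 2.13 with SE 0.61, adjusted p = 0.407, edgeR). Elovl3, the cold-induced elongase, was at 0.533, 0.584 and 5.58 CPM in wild type and 17.8, 11.2 and 8.60 CPM in the knockout. It lies outside the naming rule and was chosen after its values were seen.

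Heat production that does not use UCP1 gave a mixed picture, with 6 of 11 genes above 0 (median 0.18) and 0 called by edgeR in either fit. DESeq2 called Pm20d1 higher (adjusted p = 0.0167), against 1.2% of all genes. Pm20d1, which makes N-acyl amino acids that uncouple mitochondria, stood at 5.64, 5.37 and 5.25 CPM in wild type and at 17.2, 10.6 and 11.1 CPM in the knockout (1.26, SE 0.33, adjusted p = 0.374, edgeR). The creatine kinase gene Ckb stood at 104 ± 22.3 and 199 ± 76.4 CPM (log2 fold change 0.94 with SE 0.36, adjusted p = 0.540, edgeR). The calcium release channel gene Ryr2 stood at 0.547 ± 0.242 and 2.04 ± 2.39 CPM, with its high value in knockout replicate 1 at 4.79 CPM. Of 9 tested genes listed here as beige markers, 5 lay above 0 (median 0.10) and 0 were called. Tmem26, a beige surface marker, was lower without overlap, as 6.2% of all genes were, at 2.12 ± 1.34 and 0.536 ± 0.239 CPM (-1.96, adjusted p = 0.510, edgeR). The fatty acid transporter gene Slc27a1 was also lower without overlap, at 1037 ± 331 and 540 ± 93.6 CPM. Hoxc8, counted in that list though not a marker of beige cells alone, stood at 53.6 ± 7.28 and 93.3 ± 15.2 CPM. Of the genes listed here as classical brown, 3 of 6 tested lay above 0 (median 0.04) and 0 were called. Mpzl2, Eva1a and Eva1b had the smallest p (0.166, 0.202 and 0.357 unadjusted, edgeR). Eva1a and Eva1b are not established brown fat markers, and the count and median include them. Zic1 and Lhx8, which mark interscapular brown fat, had no row among the genes used here.

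Other activators were split evenly and repressors leaned below 0. Of 18 other activators 9 lay above 0 (median 0.05) and 0 were called by edgeR in either fit. Esrra, the nuclear receptor ERRα that works with PGC-1α, stood at 47.4, 63.4 and 53.8 CPM in wild type and at 77.8, 93.1 and 119 CPM in the knockout (0.82, SE 0.27, adjusted p = 0.485, edgeR). Cebpb, a partner of PRDM16, stood at 103 ± 24.8 and 173 ± 31.1 CPM (log2 fold change 0.74 with SE 0.29, adjusted p = 0.552, edgeR). Pparg, the main factor of all fat cells, stood at 190 ± 20.7 and 127 ± 30.5 CPM, lower in the knockout without overlap (-0.59, SE 0.28, adjusted p = 0.582, edgeR). Of 16 repressors of the program 4 lay above 0 (median -0.22), with 0 called by edgeR in either fit. DESeq2 called Wnt10b lower (adjusted p = 0.0244), where it called 271 of 14291 genes in either direction. Wnt10b, a signal that blocks fat cell formation, stood at 5.19, 2.49 and 2.72 CPM in wild type and at 0.635, 1.14 and 0.643 CPM in the knockout (-2.09, SE 0.52, adjusted p = 0.357, edgeR). Foxo1 (-0.50, no overlap) and Zeb1 (-0.76), both transcription factors, had the next smallest p of that list (adjusted p = 0.584 and 0.592, edgeR).

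Genes of the adrenergic relay, which carries the cold signal to the effectors, had 7 of 15 members above 0 (median -0.10) and 0 called by edgeR in either fit. The receptor genes Adrb3 and Adrb1 stood at 544 ± 131 and 608 ± 40.1 CPM (0.16, adjusted p = 0.803, edgeR) and at 4.02 ± 0.851 and 6.37 ± 1.46 CPM (0.66, adjusted p = 0.596, edgeR). Adrb1 had no overlap between genotypes, and Adrb3, named outside the rule, did. Prkaca, the catalytic subunit of the cAMP-dependent kinase, stood at 188, 230 and 175 CPM in wild type and at 247, 345 and 364 CPM in the knockout (0.69, SE 0.28, adjusted p = 0.567, edgeR). Map2k3, a kinase on the way to p38, stood at 69.9 ± 12.7 and 103 ± 33.1 CPM (0.56, adjusted p = 0.604, edgeR). S100b, listed here among Schwann cell markers and also made by thermogenic adipocytes, stood at 5.06, 3.93 and 5.77 CPM in wild type and at 30.3, 43.4 and 15.7 CPM in the knockout. It rose in the batch-term fit (2.597, adjusted p = 0.0454, edgeR), while Sox10, a transcription factor of Schwann cells, lay at -0.31 with genotype alone.

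**Figure D5:**
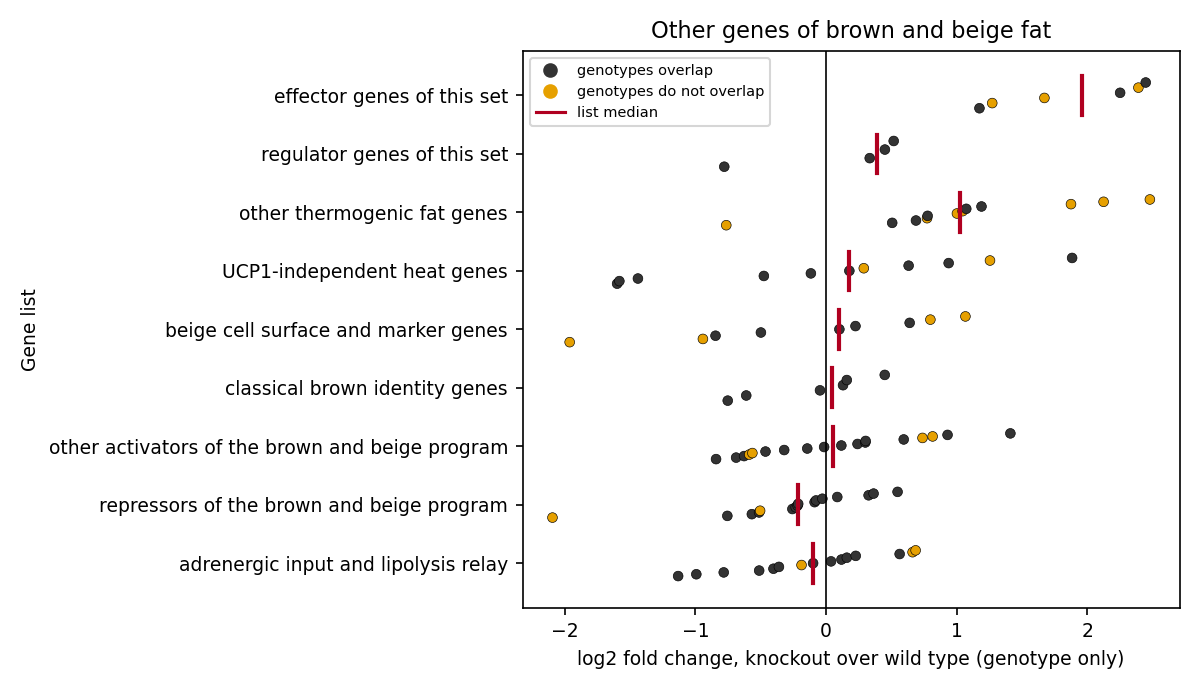
Genotype-only log2 fold changes, knockout over wild type, of the 10 genes and of 7 lists of other genes of brown and beige fat, with orange points for genes whose genotypes do not overlap and a red bar for each list's median. The effectors (median 1.96) and the other thermogenic fat genes (median 1.02) lie to the right, and the lists of activators, repressors and adrenergic genes have medians from -0.22 to 0.05.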

How the data were processed

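The authors deposited raw counts for 14291 genes in 6 libraries. Columns of log2 RPKM, log2 fold change, p-value and adjusted p-value stand beside them per the file headers, made by the authors, and were used here only to learn which design they match. TopHat2, HTSeq 0.6.1 and mm10 are named in the submitters' processing notes, with no role or order. Annotation and strand setting: not given in the sources used here. edgeR's filterByExpr removed 0 genes. Genotype and replicate number came from the sample titles.

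Counts were tested over all genes with edgeR 4.0.16 (R 4.3.3, TMM, glmQLFit and glmQLFTest, genotype as the only term), with Benjamini-Hochberg adjustment over 14291 genes and a threshold of 0.05. The step was tested on simulated data. CPM are TMM-scaled, and a standard error is the fold change over the root of F. The alternatives were RLE factors, other filters, DESeq2 1.42.0, limma-voom (limma 3.58.1), a replicate block, the batch term, left-out libraries and loess offsets for length and GC content (GENCODE M21 transcripts, 96.5% of genes). Replicate numbers did not pair all the libraries, with same-number correlations of deviations of 0.638, 0.533 and -0.102 for replicates 1, 2 and 3.

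The 10 genes and all lists were chosen with earlier results of these data known. Named beside them were up to 3 genes of each list with the smallest p, their paralogs and other isoforms, and 5 genes most like Ucp1 and like Cidea among genes with a mean of at least 1 CPM. Promoter sequences matched 7 of the 10 genes used here, and no test used them.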

Additional observations from a re-analysis of the deposited data

How the results depend on the processing

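The number of effectors called was 0 with genotype alone and with 20 of the 22 other settings. It was 2 with DESeq2 and 5 with the batch term without wild-type replicate 3, where 0.777% of all genes were called higher. That library was the highest wild-type one for each of those 5, so leaving it out raises their values. With the batch term and a library left out the number of effectors called ranged from 0 to 5. The number of regulators called was 0 in all 22 settings. Over all genes, 0 were called with genotype alone, 1 with RLE factors, 271 with DESeq2, 72 with the batch term, 50 in replicates 2 and 3 alone, 15 with length and GC offsets and 435 with offsets plus batch term. With a library left out the number ran from 0 to 42 with genotype alone and from 0 to 205 with the batch term (29, 125 and 205 without wild-type replicates 1, 2 and 3, and 21, 0 and 21 without knockout replicates 1, 2 and 3). The replicate block, which rests on numbers that did not pair all the libraries (same-number correlations of deviations 0.638, 0.533 and -0.102), gave 57 calls over the table and 0 among the 10 genes.

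Cidea, Cox7a1, Cox8b, Otop1, Ucp1 and Prdm16 stayed above 0 and Ebf2 below 0 in all 22 settings. Dio2 reversed in replicates 2 and 3 alone (-0.88) and without knockout replicate 1 (-0.66), and with the batch term without wild-type replicate 1 (-0.85), wild-type replicate 2 (-0.11) or knockout replicate 1 (-0.87). Ppargc1a reversed with the batch term (-0.10), in replicates 2 and 3 alone (-0.85) and without knockout replicate 1 (-1.09). With the batch term it was also -0.82 and -0.48 without wild-type replicates 1 and 2, and -0.85 and -0.60 without knockout replicates 1 and 3. Ppargc1b reversed in replicates 2 and 3 alone (-0.34), with the offsets and the batch term (-0.18) and without knockout replicate 1 (-0.79), and with the batch term without wild-type replicates 1 (-0.31) and 2 (-0.0036) and without knockout replicate 1 (-0.33). With a library left out, genotype-only values reached 2.36 for Dio2, 1.06 for Ppargc1a and 0.94 for Ppargc1b. The cause was not tested. Some values rest on few counts, such as 20 for Ppargc1a and 31 for Dio2 in wild-type replicate 2. Their exact Poisson intervals were 12.2 to 30.9 and 21.1 to 44.0 counts and cover counting error only. That library had the highest total count (26403882), and the part of depth in these values was not tested.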
